A study of Homo sapiens with 6 samples.

Results

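The genes described here encode the proteins of the 2 ribosomes of a human cell: the cytosolic ribosome, which translates messenger RNA made in the nucleus, and the mitochondrial ribosome, which translates the few messengers made inside mitochondria. Members were chosen by symbol alone, from probe sets that the platform annotation ties to exactly 1 gene: RPL, RPS and RPLP symbols for the cytosolic ribosome and MRPL and MRPS symbols for the mitochondrial one. The rule found 135 genes of 19775 on the array. Of these, 60 were cytosolic, carried by 121 probe sets, and 75 were mitochondrial, carried by 140. Where a gene had several probe sets, the brightest on average stood for it. A further 15 cytosolic and 2 mitochondrial genes were found on probe sets that list several symbols alone, so they are not described by gene. RPLP0, RPL5, RPL10 and RPL26 had no probe set that met the rule.

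The cells were THP1, an established monocytic line from an acute myeloid leukaemia, read on Affymetrix Human Genome U133 Plus 2.0 arrays with 1 array per sample. The 3 samples of the untreated group were set against 3 samples kept for 48 hours on a Dll4-Fc coating. Dll4-Fc is Delta-like 4, a ligand of Notch receptors, fused to the Fc piece of an antibody. The labels carry 2 descriptions of the groups: the protocol calls the control vehicle and gives a coating of 30 nM, while the sample labels say untreated and 60 nM. No well coated with Fc alone is named. All 6 samples are the same line, with no allele or transgene named, and the labels do not say whether replicates were separate cultures, so p-values reflect only how far these samples spread, which may be technical. Values are log2 intensities, and a difference is the mean of the Dll4-Fc arrays minus the mean of the untreated arrays, ± its standard error, with n = 3 arrays per group. A gene passed when its limma p-value, after Benjamini-Hochberg adjustment across every gene measured, was under 0.05. Arrays are called untreated 1 to 3 and Dll4-Fc 1 to 3 by their replicate numbers.

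Each ribosome has a small subunit, which reads the messenger, and a large subunit, which joins amino acids. Cells need the cytosolic proteins in matched amounts, and their messengers share an unusual start: transcription begins on a cytosine followed by a run of pyrimidines, the 5′ terminal oligopyrimidine (TOP) tract, through which mTORC1 and LARP1 control translation. The proteins of the mitochondrial ribosome are nuclear gene products that are imported, and they serve the making of respiratory chain subunits. In blood-forming cells, loss of 1 copy of several cytosolic ribosomal protein genes causes Diamond-Blackfan anaemia.

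The start sites show the main sequence difference between both sets. Below are the bases from 40 before to 20 after the annotated start of 13 members, taken from RefSeq promoter sequences on GRCh38.p14 and written 5′ to 3′ on the transcribed strand. Base 41 of each line is the annotated first transcribed base, called +1. Capitals mark a run of C and T that opens with a C within 5 bases of +1 and holds at least 5 bases. RPS16 carries a tract of 8, RPL31 one of 10, and RPL18, RPL29, RPL36, RPL22, RPL22L1 and RPS27L are shown because results below turn on them. The mitochondrial members shown are those with the largest differences in either direction. They were picked after their values were seen.
RPS16: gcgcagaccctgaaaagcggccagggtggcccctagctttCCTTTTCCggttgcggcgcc
RPL18: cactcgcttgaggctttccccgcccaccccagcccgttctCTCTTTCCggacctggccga
RPL29: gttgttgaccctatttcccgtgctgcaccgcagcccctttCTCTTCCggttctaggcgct
RPL36: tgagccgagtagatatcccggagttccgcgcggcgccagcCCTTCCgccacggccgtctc
RPL31: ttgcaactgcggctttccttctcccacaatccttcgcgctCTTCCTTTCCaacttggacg
RPL22: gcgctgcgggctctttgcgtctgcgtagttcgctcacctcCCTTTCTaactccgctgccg
RPL22L1: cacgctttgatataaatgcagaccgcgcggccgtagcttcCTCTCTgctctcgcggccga
RPS27L: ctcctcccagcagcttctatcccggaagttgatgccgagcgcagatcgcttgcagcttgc
MRPS6: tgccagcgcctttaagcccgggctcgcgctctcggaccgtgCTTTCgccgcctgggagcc
MRPS17: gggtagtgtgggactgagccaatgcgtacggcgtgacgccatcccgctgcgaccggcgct
MRPL40: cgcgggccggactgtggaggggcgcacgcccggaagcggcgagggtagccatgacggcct
MRPS27: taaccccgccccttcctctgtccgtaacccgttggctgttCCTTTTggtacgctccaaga
MRPL16: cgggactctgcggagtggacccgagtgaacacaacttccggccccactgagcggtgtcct

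RPS16 lies at chr19:39435930-39435989 on the minus strand, RPL31 at chr2:101002249-101002308 on the plus strand and RPL29 at chr3:51995876-51995935 on the minus strand. RPL22L1 lies at chr3:170870176-170870235 and RPS27L at chr15:63157458-63157517, both on the minus strand. MRPS6 lies at chr21:34073538-34073597 on the plus strand and MRPL16 at chr11:59810759-59810818 on the minus strand. Each of these windows spans the promoter and the first 20 bases of the gene.

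A tract was found at the first listed start of 42 of the 52 cytosolic members with a promoter entry (80.8%) and of 14 of the 67 mitochondrial members with one (20.9%). Among 15842 protein-coding genes the share was 22.1%. Tracts of 8 bases or more stood at 42.3% of cytosolic starts, 1.49% of mitochondrial starts and 4% of protein-coding starts. A C lay exactly at +1 in 38 cytosolic members (73.1%), in 6 mitochondrial members (8.96%) and in 11.3% of protein-coding genes. Counted over every listed start, the tract shares were 76.7%, 19.3% and 22%, so the order did not depend on taking the first. RPS27L, the stress-linked paralog of RPS27, and RPL7L1, RPL26L1 and RPL10L were among the 10 cytosolic members with no tract at their first listed start. The rest of the 10 were the core genes RPL6, RPL9, RPL27, RPS15, RPS29 and RPS4X. The paralogs RPL22L1 and RPS4Y1 carry tracts of 6 and 7 bases. The plot of pyrimidine share by position shows the cytosolic set apart from the other sets over the first bases of the transcript.

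**Figure D1:**
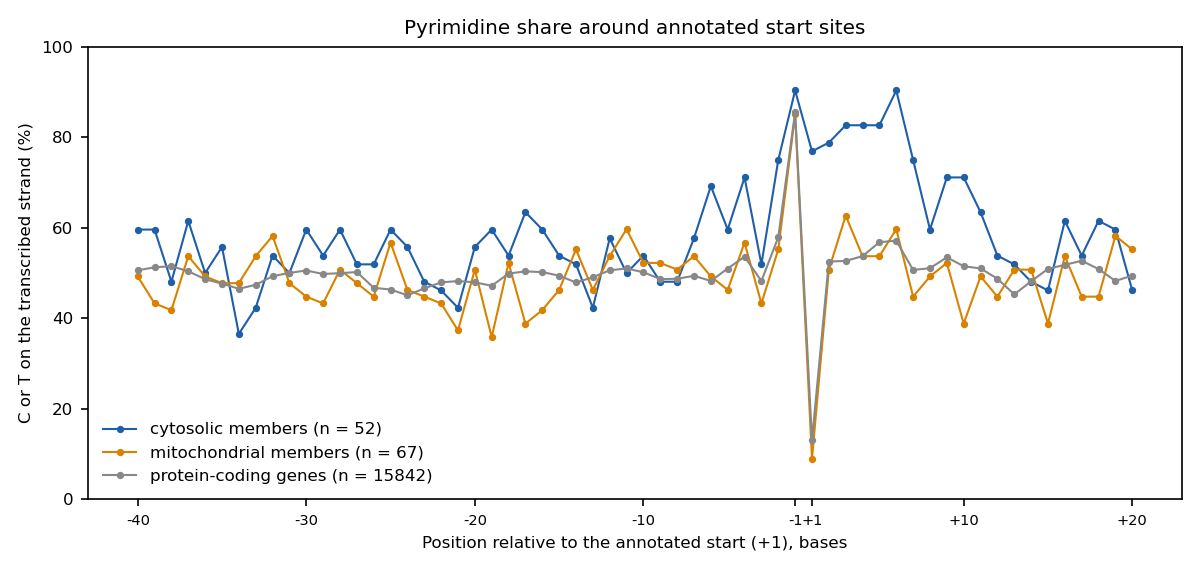
The share of genes with C or T on the transcribed strand (percent, y axis) at each base from 40 before to 20 after the annotated start (x axis, +1 is the first transcribed base) for 52 cytosolic members, 67 mitochondrial members and 15842 protein-coding genes; lines join positions. At +1 the cytosolic set stands at 76.9%, the mitochondrial set at 8.96% and protein-coding genes at 13.01%.

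Other motifs were counted on both strands from 250 bases before to 50 after the start, a window of 300 bases. The ETS family core CCGGAAG was present in 36.5% of cytosolic and 41.8% of mitochondrial members, against 14.2% of protein-coding genes. The YY1 motif AAGATGGCG was present in 7.69%, 17.9% and 2.74%. The TATAAA box was present in 9.62%, 2.99% and 9.63%, the CCAAT box in 28.8%, 29.9% and 36.4%, and the E box CACGTG, which MYC can bind, in 5.77%, 8.96% and 8.88%. The ETS match overlapped the tract in 2 cytosolic and 4 mitochondrial members, and in no member did it overlap the YY1 match. These are matches of letters, not binding sites.

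Median intensities ran from 50.6 to 52.7. For pairs of arrays within a group, the log2 differences over all genes had SDs from 0.139 to 0.210. The signal of the 3′ ACTB control probe set minus that of its 5′ partner, a sign of RNA integrity, was 0.69 to 0.78 in untreated arrays. In Dll4-Fc arrays it was 0.63 to 0.70, so lower with a narrow overlap. For GAPDH it was 0.37 to 0.39 and 0.38 to 0.39. The part of the ACTB shift in the results below was not tested. All 9 measured myeloid markers were above the median probe set signal in both groups, as were 3 of 4 B cell markers, 1 of 2 erythroid, 1 of 5 epithelial, 2 of 7 fibroblast and endothelial and none of 5 T cell markers. Of the myeloid markers 4 rose, among them LYZ and ITGAX, and 4 fell, among them ELANE and MPO, and their summed intensity went from between 24460 and 25337 to between 31207 and 32274. Of the markers of other cells, PAX5 of B cells (0.60) and PECAM1 of endothelium (0.55), which monocytes also carry, rose (limma adjusted p = 0.0039 and 0.00041). The summed intensity of the B cell list went from 318 to 322 up to 352 to 405, and that of the fibroblast and endothelial list from 3598 to 3911 up to 5216 to 5408. For T cell markers it was 114 to 118 and 117 to 118, for epithelial ones 163 to 165 and 151 to 171, and for erythroid ones 145 to 151 and 119 to 140. The part of these markers in the results below was not tested. In a bulk sample, fewer cells making a messenger and less messenger per cell cannot be told apart.

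Array signals of cytosolic ribosomal protein genes were slightly lower with Dll4-Fc, in nearly all genes and by a small amount. The mean of the Dll4-Fc arrays lay below that of the untreated arrays in 57 of 60 genes, and the median difference was -0.07, against -0.01 over all genes. In 46 of the 60 every Dll4-Fc array lay below every untreated array (76.7%), while this held for 23.5% of all genes and 41.1% of genes with a mean log2 signal of 10 or more. In 1 gene, RPL22L1, every Dll4-Fc array lay above, against 18.1% of all genes. In either direction the groups did not overlap in 78.3% of members, 41.6% of all genes and 70.8% of genes with a mean of 10 or more. The differences were narrow: 55 of 60 (91.7%) were under 0.2 in size, against 67.2% of all genes, and the interquartile range was 0.076 against 0.244. Differences are smaller among very bright genes, and 50 of the 60 members had a mean of 13 or more. Among the 206 other genes that bright, 80.6% were under 0.2 and the interquartile range was 0.165.

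Few of these small differences passed the test. With limma, 5 genes fell and 1 rose (10%), against 26.6% of all genes (15% lower, 11.6% higher) and 42.6% of genes with a mean of 10 or more. Without untreated 1 the count of falls was 2, without untreated 2, Dll4-Fc 1 or Dll4-Fc 2 it was 1, and without untreated 3 or Dll4-Fc 3 it was 6 or 4. The median difference was steadier, between -0.08 and -0.07 over those 6 fits.

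The spread behind the test matters here. The median within-group SD of a cytosolic member was 0.027, against 0.097 over all genes, and the median standard error assigned to its difference was 0.051, because the default prior draws each gene's variance toward a value shared by all genes. With a prior that follows the mean signal (limma's trended, robust prior), 35 cytosolic members fell and 1 rose. The share of falls was then 58.3%, against 18.2% of all genes and 36.2% of genes with a mean of 10 or more. All 5 genes that fell under the default prior were among the 35.

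The per-array medians of the cytosolic set, each taken as the deviation from a gene's untreated mean, were 0.003, 0.007 and -0.011 in the untreated arrays. They were -0.09, -0.07 and -0.06 in the Dll4-Fc arrays. All Dll4-Fc arrays lay below all untreated arrays. Both subunits shared this: the median difference was -0.08 for the 22 small-subunit members and -0.07 for the 38 large-subunit members, with 2 and 3 falls.

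**Figure D2:**
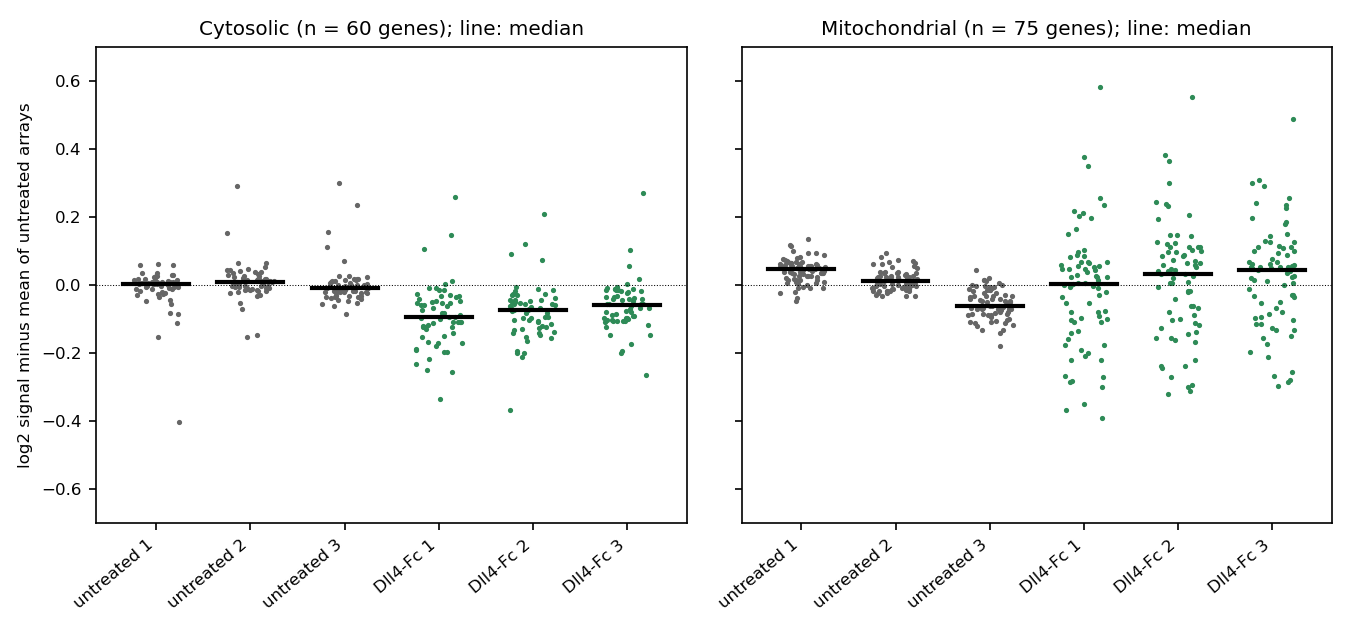
Each point is 1 gene on 1 array, as its log2 signal minus that gene's mean over the 3 untreated arrays (y axis), for 60 cytosolic members (left) and 75 mitochondrial members (right); horizontal bars are medians and sideways scatter has no meaning. The cytosolic medians of the Dll4-Fc arrays lie at -0.09, -0.07 and -0.06, while the mitochondrial points spread to both sides of 0.

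RPS27L, a p53-responsive paralog of the small-subunit protein RPS27, fell most. Its signal was 12.79, 12.88 and 12.84 in the untreated arrays and 12.50, 12.47 and 12.57 in the Dll4-Fc arrays. The groups were well apart, with a difference of -0.32 ± 0.06 (limma adjusted p = 0.00486), a 1.25-fold decrease. It passed in every alternative fit, with differences from -0.51 to -0.30. RPS27 itself, the main copy, stood at 14.52, 14.54 and 14.56 untreated and 14.48, 14.51 and 14.53 with Dll4-Fc. Those groups overlapped, and the difference was -0.03 ± 0.05 (limma adjusted p = 0.716). A dimmer probe set of RPS27, which stood for the gene when shared probe sets were left out, was as low as RPS27L, at -0.32, but did not pass (adjusted p = 0.177), and the mean of both was -0.18 (adjusted p = 0.178).

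RPL22L1, the paralog of RPL22 in the large subunit, was the single cytosolic member that rose. Its values were 10.41, 10.49 and 10.42 untreated and 10.70, 10.65 and 10.71 with Dll4-Fc, so the groups did not overlap. The difference was 0.25 ± 0.05 (limma adjusted p = 0.0128, 1.19-fold). Without Dll4-Fc 1 it was 0.24 with an adjusted p of 0.0556. RPL22 stood at 14.10, 14.08 and 14.10 untreated and 13.97, 13.99 and 13.99 with Dll4-Fc, all lower, with a difference of -0.11 ± 0.05 that did not pass (limma adjusted p = 0.147). Other probe sets of RPL22, described below, did fall.

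The other falls were in the large-subunit genes RPL29, RPL36 and RPL18 and in RPS4Y1, a paralog of RPS4X. RPL29 went from 14.10, 14.14 and 14.07 untreated to 13.87, 13.90 and 13.91, a difference of -0.21 ± 0.05 (limma adjusted p = 0.0204). RPL36 went from 13.58, 13.57 and 13.52 to 13.30, 13.35 and 13.41 (-0.20 ± 0.06, limma adjusted p = 0.0319), and RPL18 from 13.92, 13.96 and 13.87 to 13.70, 13.71 and 13.74 (-0.20 ± 0.05, limma adjusted p = 0.0259). In all 3 the groups did not overlap. RPS4Y1 had a difference of -0.18 ± 0.06 (limma adjusted p = 0.0452), and RPS4X -0.12 ± 0.05 (limma adjusted p = 0.15). These 4 calls were fragile: each was lost without untreated 1, untreated 2, Dll4-Fc 1 or Dll4-Fc 2, and that of RPS4Y1 also without Dll4-Fc 3, with adjusted p-values of 0.056 to 0.14. That of RPS4Y1 was lost too when shared probe sets were left out (0.0697). With a gene's probe sets averaged, RPL18 stood at -0.11 (adjusted p = 0.231) and RPL36 at -0.14 (adjusted p = 0.104). RPL36 overlaps LONP1 in the gene table, whose probe set differed by 0.07 ± 0.06 (limma adjusted p = 0.516).

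**Figure D3:**
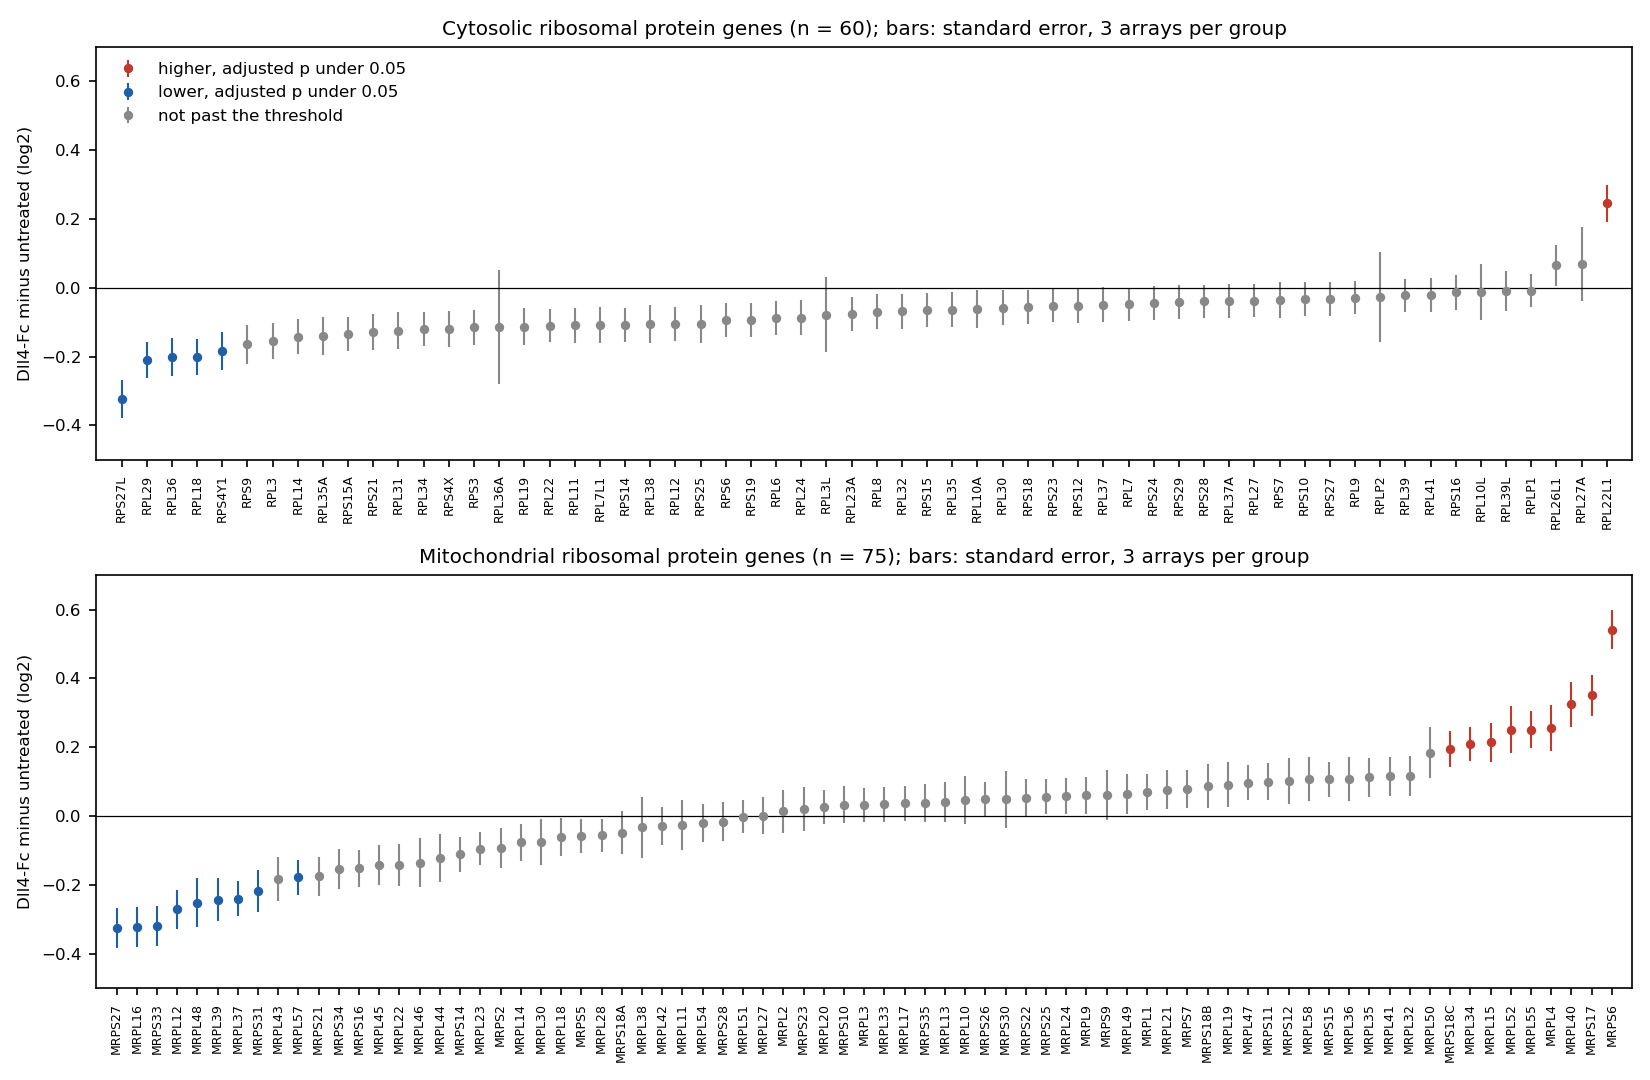
Difference in log2 signal, Dll4-Fc minus untreated (y axis), for each of the 60 cytosolic members (top) and 75 mitochondrial members (bottom) in order of size; bars are standard errors, n = 3 arrays per group, and colour marks calls at an adjusted p under 0.05. The cytosolic points run from -0.32 to 0.25 with 57 below 0, and the mitochondrial points run from -0.33 to 0.54 with 9 calls on either side.

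Most cytosolic members gave very bright signals. The highest value on any array was between 14.72 and 14.78, and 50 of the 60 members had a mean of 13 or more. All 50 had a Dll4-Fc mean below the untreated mean, and 44 had no overlap between groups. Among the 206 other genes that bright, 97 had a lower mean, the median difference was 0.01 and 67 were lower with no overlap (32.5%). Of those 206, 27 rose and 21 fell. Within the members, the 14 with a mean from 13 up to 14 had a median difference of -0.13 and 4 falls, and the 36 with a mean of 14 or more had a median of -0.06 and no fall with limma's default prior. At an unadjusted p under 0.05, 3 of these 36 were lower, with the trended prior 19 fell, and in 30 the groups did not overlap. Whether signals this near the top of the range show a difference in messenger at its full size was not tested. Of the 25 other genes with a mean of 14 or more, 8 had a lower mean and 6 were lower with no overlap. Their median difference was 0.05, and 4 rose and 1 fell with the default prior. The members with a mean under 13 numbered 10 and included the paralogs RPS27L, RPL22L1, RPL7L1, RPL26L1, RPL39L, RPL10L and RPL3L. RPL27A, RPLP2 and RPL36A also stood there in log2 signal, at 8.3, 6.5 and 5.6. Whether their probe sets read the main messengers of these genes was not tested.

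**Figure D4:**
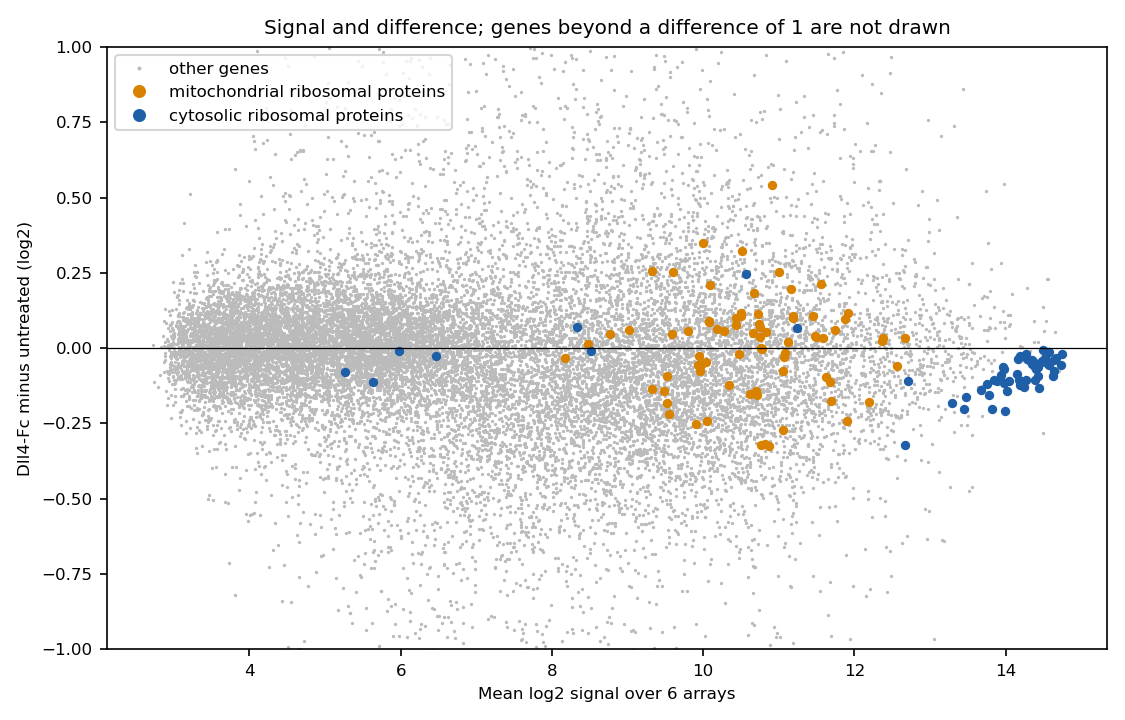
Mean log2 signal over 6 arrays (x axis) against the difference in log2 signal, Dll4-Fc minus untreated (y axis), for 19775 genes; 634 genes beyond a difference of 1 are not drawn. The cytosolic members (blue) sit at the bright end, 50 of them at a mean of 13 or more and all of those below 0, and the mitochondrial members (orange) lie lower in signal and on both sides of 0.

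Second probe sets of several cytosolic genes showed much larger falls than the bright one that stood for the gene. These were picked after their values were seen. In a fit over all 54675 probe sets, 13 of the 121 cytosolic probe sets fell and 1 rose (11.6%), against 9.25% lower and 7.21% higher over the array. By signal, 11 of the 29 with a mean from 7 up to 13 fell, against 20% of all probe sets in that range. Of the 24 below 7, 1 fell (4.22% over the array), and of the 68 with a mean of 13 or more, 1 fell (6.1%). All 68 of the last had a lower mean with Dll4-Fc, as did 295 of all 492 probe sets that bright. In 60 of the 68 the groups did not overlap, against 45.3% of the 492 and 19% of the whole array. Among the 65 probe sets that list a cytosolic symbol beside others, 45 had a mean of 13 or more, and 44 of those had a lower mean.

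RPL31, a large-subunit protein at the exit of the nascent chain tunnel, is an example. Its bright probe set 200963_x_at stood at 14.24, 14.26 and 14.25 untreated and 14.08, 14.11 and 14.19 with Dll4-Fc (-0.12 ± 0.06). Probe set 200962_at of the same gene went from 11.05, 11.07 and 11.02 to 9.90, 9.89 and 10.06, far apart, with a difference of -1.10 ± 0.07 (limma adjusted p = 3.69e-05 over all probe sets). The third, 221593_s_at, differed by -0.47 ± 0.08 (limma adjusted p = 0.00649).

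RPL37, another large-subunit gene, had the same layout. Its bright probe set 200092_s_at was 14.40, 14.40 and 14.42 untreated and 14.37, 14.31 and 14.39 with Dll4-Fc, a difference of -0.05 ± 0.06. Probe set 224763_at went from 9.32, 9.34 and 9.25 to 8.15, 8.03 and 8.44, a difference of -1.10 ± 0.11 (limma adjusted p = 0.000318). Probe sets 224767_at and 224766_at of that gene also fell, by 0.67 and 0.42. All 3 dimmer probe sets separated the groups fully.

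In RPL22, the 3 bright probe sets lay at -0.13 to -0.10, while 221726_at fell by 0.77 (± 0.07, limma adjusted p = 0.000199) and 214042_s_at by 0.50. In RPS15A, 235309_at went from 8.53, 8.47 and 8.42 to 7.47, 7.46 and 7.67, a difference of -0.94 ± 0.08 (limma adjusted p = 0.00016), against -0.13 for its bright probe set, and 229882_at, near the background at a mean of 6.0, differed by 0.16 (limma adjusted p = 0.167). RPS21 (214097_at, -0.42) and RPL35A (238026_at, -0.46, adjusted p = 0.0537 without Dll4-Fc 1) had 1 such probe set each. For RPL29, both probe sets were bright, and 200823_x_at fell by 0.33 (± 0.06, limma adjusted p = 0.0097) against 0.21 for the other. RPL31 overlaps TBC1D8 in the gene table and RPL35A overlaps DRC9, whose brighter probe set differed by 0.26 (limma adjusted p = 0.0518 over genes). What part of a transcript each probe set reads was not tested.

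**Figure D5:**
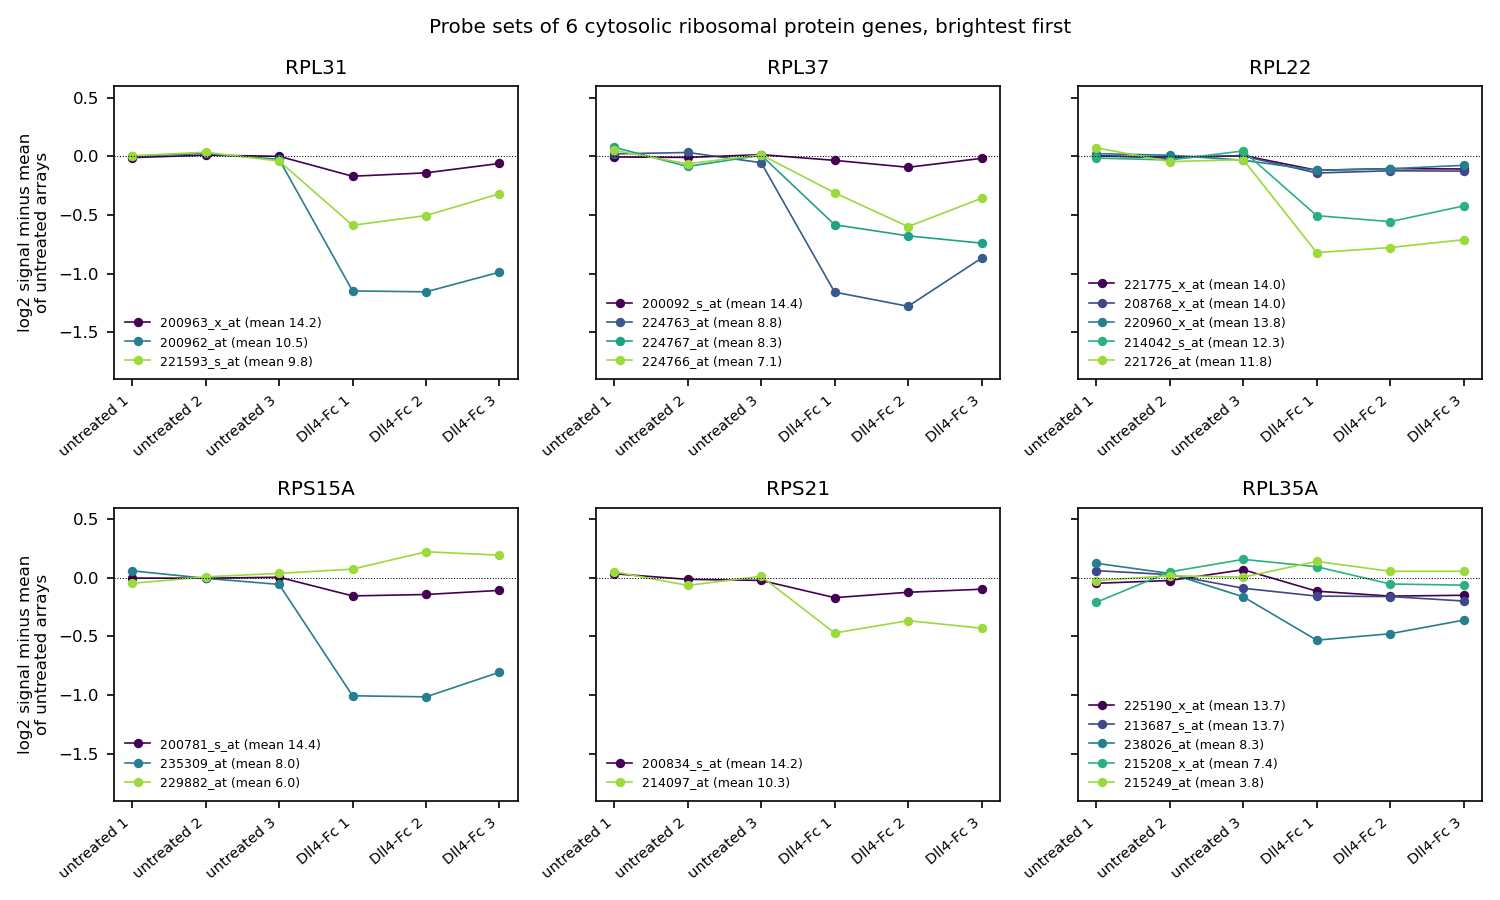
Log2 signal of each probe set on each array, minus its mean over the 3 untreated arrays (y axis), for 6 cytosolic genes by array (x axis); colours are probe sets with their mean signal, and lines only join the points of 1 probe set. In RPL31 and RPL37 the bright probe sets lie at -0.12 and -0.05 on average while 200962_at and 224763_at both lie at -1.10.

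In all, 34 cytosolic members had several probe sets. In 22 of them all probe sets differed in the same direction, and in none did probe sets pass in opposite directions. Some second probe sets lay above 0: 1 each of RPS24, RPS10 and RPL37A stood at 0.27, 0.25 and 0.24, none past the threshold. The bright probe sets of these genes stood at -0.04, -0.03 and -0.04. With probe sets that can match several transcripts left out, 37 cytosolic members were measured, of which 20 were lower with no overlap and 9 fell, with a median of -0.11. Over all genes 2212 fell in that fit, and the share with no overlap was not counted in it. In the default fit 15% of all genes fell and 23.5% were lower with no overlap.

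Genes of Diamond-Blackfan anaemia lay slightly below the untreated level, as did the whole cytosolic set (57 of 60, median -0.07). Of the 9 listed, 6 were measured, and all 6 had a lower mean, with a median difference of -0.07. With limma's default prior none passed (1 at an unadjusted p under 0.05), against 10% of cytosolic members and 26.6% of all genes. With the trended prior 3 fell, against 58.3% of cytosolic members and 18.2% of all genes. RPS19, the gene most often affected, was 14.49, 14.50 and 14.45 untreated and 14.38, 14.40 and 14.38 with Dll4-Fc, lower on every array, with a difference of -0.09 ± 0.05 (limma adjusted p = 0.232). RPL11, which binds MDM2 when ribosome assembly fails, differed by -0.11 ± 0.05 (limma adjusted p = 0.169). RPS14, deleted in the 5q- syndrome, also differed by -0.11 ± 0.05 (limma adjusted p = 0.171). In all 3 the groups did not overlap. Of all cytosolic members 76.7% were lower with no overlap, and of all genes 23.5%. With probe sets averaged RPS19 stood at -0.06 and RPS14 at -0.03, and RPS14 turned to 0.06 (adjusted p = 0.759) with shared probe sets left out.

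Among the 8 measured paralogs of core proteins, RPS27L and RPS4Y1 fell and RPL22L1 rose, as above (37.5%, against 26.6% of all genes). RPL7L1, which acts in ribosome assembly, was lower on all Dll4-Fc arrays (-0.11 ± 0.05, limma adjusted p = 0.179), and RPL7 was too (-0.05 ± 0.05, limma adjusted p = 0.551), but RPL7 turned to 0.08 (adjusted p = 0.689) with shared probe sets left out. RPL26L1 differed by 0.06 ± 0.06 (limma adjusted p = 0.496). RPL39L differed by -0.01 ± 0.06 (limma adjusted p = 0.94) and RPL39 by -0.02 ± 0.05. RPL10L and RPL3L, known mainly from testis and muscle, were near 6.0 and 5.3 in signal and differed by -0.01 ± 0.08 and -0.08 ± 0.11. RPL3L stood at 0.008 without Dll4-Fc 1 and at -0.18 without Dll4-Fc 2. RPL3, the core copy, differed by -0.15 ± 0.05 (limma adjusted p = 0.0738), with no overlap between groups.

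Members with and without a start-site tract overlapped in their differences. The 42 cytosolic members with a tract had a median difference of -0.09, from -0.21 to 0.25, and the 10 without one had a median of -0.05, from -0.32 to 0.07. RPL22L1, with a tract, was the highest, and RPS27L, without one, was the lowest. Small nucleolar RNA genes lie within 11 of the 60 cytosolic members and 2 of the 75 mitochondrial members in the gene table.

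Mitochondrial ribosomal protein genes went in both directions. With limma 9 rose and 9 fell (24%), against 26.6% of all genes and 42.6% of those with a mean of 10 or more. The median difference was 0.03, and 43 of 75 means were above the untreated mean. Every Dll4-Fc array lay above every untreated array in 22 genes (29.3%, against 18.1% of all genes) and below in 20 (26.7%, against 23.5%). Among genes with a mean of 10 or more, as 56 of the 75 have, these shares were 29.6% above and 41.1% below. The differences were wider than in the cytosolic set, with an interquartile range of 0.188. Calls in this set depended on single arrays: without untreated 2, 4 rose and 4 fell, and without Dll4-Fc 1 or 2, 4 rose and 5 fell. Without untreated 1, 9 rose and 5 fell, and without Dll4-Fc 3, 5 rose and 7 fell.

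MRPS6, the small-subunit protein bS6m, rose most of the 135 genes. It was 10.69, 10.64 and 10.58 in the untreated arrays and 11.22, 11.19 and 11.13 in the Dll4-Fc arrays. The groups were far apart, with a difference of 0.54 ± 0.06 (limma adjusted p = 0.00045, 1.46-fold), and the call held in every alternative fit. In the gene table MRPS6 overlaps SLC5A3, a myo-inositol transporter gene. Of the 4 probe sets of SLC5A3, 3 rose, by 0.53, 0.48 and 0.41 (limma adjusted p = 0.00123, 0.00271 and 0.0148 over all probe sets), and the fourth differed by 0.17. Whether the MRPS6 probe set reads only MRPS6 was not tested.

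MRPS17, the small-subunit protein uS17m, went from 9.87, 9.86 and 9.73 to 10.20, 10.19 and 10.13, a difference of 0.35 ± 0.06 (limma adjusted p = 0.00453, 1.27-fold). MRPL40, a large-subunit protein encoded in the region deleted in 22q11 syndrome, went from 10.44, 10.32 and 10.31 to 10.71, 10.74 and 10.60, a difference of 0.32 ± 0.07 (limma adjusted p = 0.00927, 1.25-fold). In both the groups did not overlap, and both passed in every alternative fit.

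The other 6 that rose were MRPL4 (0.26), MRPL55 (0.25), MRPL52 (0.25), MRPL15 (0.21) and MRPL34 (0.21) of the large subunit and MRPS18C (0.19), 1 of 3 forms of a small-subunit protein. Their adjusted p-values from limma lay between 0.0109 and 0.0314. MRPL55 was the steadiest of the 5 large-subunit genes, at 9.52, 9.46 and 9.43 untreated and 9.72, 9.71 and 9.72 with Dll4-Fc, and it passed when any 1 array was left out, but with the mean of all its probe sets it stood at 0.10 (adjusted p = 0.276). MRPL4, MRPL52, MRPL15 and MRPL34 lost the call without untreated 2, Dll4-Fc 1 or Dll4-Fc 2, with adjusted p-values between 0.0578 and 0.108. Without Dll4-Fc 3, MRPL4, MRPL52 and MRPL15 lost it too (0.0754, 0.068 and 0.0631), and without untreated 3, MRPL52 and MRPL15 did (0.055 and 0.0558). MRPL4 stood at 0.12 (adjusted p = 0.26) with its probe sets averaged and at -0.06 (adjusted p = 0.674) when probe sets shared between transcripts were left out. MRPS18C lost the call without untreated 2 or any 1 of the Dll4-Fc arrays (adjusted p from 0.0543 to 0.103), and stood at 0.012 (adjusted p = 0.915) with the mean of its probe sets. MRPL34 overlaps ABHD8 in the gene table, whose probe set differed by 0.07 (limma adjusted p = 0.566).

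Among the falls, MRPS27, MRPL16 and MRPS33 stood together. MRPS27, a pentatricopeptide repeat protein of the small subunit, went from 11.09, 11.03 and 10.98 to 10.64, 10.73 and 10.75 (-0.33 ± 0.06, limma adjusted p = 0.00552). MRPL16, the protein uL16m, went from 10.98, 10.94 and 10.85 to 10.57, 10.60 and 10.63 (-0.32 ± 0.06, limma adjusted p = 0.00536). MRPS33, of the small subunit, went from 11.02, 10.99 and 10.91 to 10.61, 10.66 and 10.69 (-0.32 ± 0.06, limma adjusted p = 0.00541). All 3 were about 1.25-fold lower, with no overlap between groups. MRPL16 and MRPS33 passed in every alternative fit, and MRPS27 in all but the mean of its probe sets (-0.19, adjusted p = 0.107).

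MRPL12, which forms the stalk of the large subunit and binds the mitochondrial RNA polymerase, went from 11.26, 11.20 and 11.13 to 10.90, 10.95 and 10.93, a difference of -0.27 ± 0.06 (limma adjusted p = 0.0105). Without Dll4-Fc 1 its adjusted p was 0.05 and it did not pass, and with shared probe sets left out it stood at -0.25 (adjusted p = 0.119). MRPL37, of the large subunit, fell by 0.24 ± 0.05 (limma adjusted p = 0.0115), with adjusted p-values of 0.0513 without untreated 2 and 0.0549 without Dll4-Fc 1. The gene overlaps SSBP3 in the gene table, whose brightest probe set differed by 0.22 (limma adjusted p = 0.131 over genes). Its other probe sets differed by 0.31 and 0.10, neither past the threshold.

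The last 4 falls were smaller or less firm: MRPL48 (-0.25), MRPL39 (-0.24), MRPS31 (-0.22) and MRPL57 (-0.18), with limma adjusted p-values from 0.0271 to 0.0389. MRPL48, MRPL39 and MRPS31 each lost the call without untreated 1, untreated 2 or Dll4-Fc 2 (adjusted p from 0.0541 to 0.113), MRPL48 and MRPS31 also without Dll4-Fc 1 (both 0.128), MRPL48 and MRPL39 also without Dll4-Fc 3 (0.0581 and 0.0717) and MRPS31 also without untreated 3 (0.0672). With cyclic loess all 3 lost it (adjusted p = 0.0535, 0.0524 and 0.0939). MRPL57 lost it without untreated 1, untreated 2 or any 1 of the Dll4-Fc arrays (adjusted p from 0.0672 to 0.142). MRPL39 has a second probe set near the background, at a mean of 3.5, that differed by 0.25 (limma adjusted p = 0.0688 over probe sets), and the mean of both gave 0.0014. With shared probe sets left out this probe set stood for the gene, which was then called higher (adjusted p = 0.0496). A second probe set of MRPS31, 212604_at, fell by 0.35 (limma adjusted p = 0.0094 over probe sets). MRPS12, the decoding-centre protein uS12m, differed by 0.10 ± 0.07 (limma adjusted p = 0.344), with overlap between groups, and by 0.045 without untreated 3.

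Second probe sets of mitochondrial genes held fewer large falls, and that of MRPS14 was the largest. Of 140 mitochondrial probe sets, 7 rose and 11 fell in the fit over all probe sets (12.9%, against 16.5%). These counts also moved with single arrays, to 2 falls without Dll4-Fc 1, 5 without Dll4-Fc 2, 6 without untreated 1 and 3 without untreated 2, and to between 2 and 4 rises when any 1 array was left out. MRPS14 was -0.11 ± 0.05 at its bright probe set, and 203801_at went from 8.001, 7.887 and 7.797 to 7.129, 6.955 and 7.263, a difference of -0.78 ± 0.10 (limma adjusted p = 0.00113). Of 37 members with several probe sets, 19 had all of them in the same direction, and none had calls in opposite directions.

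By role, proteins kept from the bacterial ancestor and those added later in evolution were counted apart, from a list. Of 45 measured members listed as conserved, 7 rose and 2 fell (20%), with a median difference of 0.04. Of the 30 others 2 rose and 7 fell (30%), with a median of -0.03. Over all genes 11.6% rose and 15% fell. The list holds MRPL55, which has no known bacterial counterpart. With MRPL55 moved, 6 of 44 rose and 2 fell, and 3 of the 31 others rose and 7 fell. The risers MRPS6, MRPS17, MRPS18C, MRPL4, MRPL15 and MRPL34 have bacterial counterparts, as do MRPL12 and MRPL16, which fell. MRPL40, MRPL52 and MRPL55, which rose, do not, nor do MRPS27, MRPS33, MRPL37, MRPL39, MRPL48, MRPS31 and MRPL57, which fell. The difference between both groups was not tested. By subunit, 3 of 27 small-subunit genes rose and 3 fell (22.2%), and 6 of 48 large-subunit genes rose and 6 fell (25%), both near the share of all genes.

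Set side by side, the cytosolic set lay slightly below the untreated level in nearly all members, and the mitochondrial set spread to both sides. The gap between the medians, cytosolic minus mitochondrial, was -0.11. By array it was -0.04, -0.003 and 0.05 in the untreated arrays, which centre on 0 by construction, and -0.10, -0.11 and -0.10 in the Dll4-Fc arrays. All Dll4-Fc arrays lay below all untreated ones. The untreated arrays differed more in the mitochondrial median (0.05, 0.01 and -0.06) than in the cytosolic one. The gap lay between -0.11 and -0.08 when any 1 array was left out.

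Genes of the same ribosomes that the symbol rule missed had lower means with Dll4-Fc. FAU, which encodes a small-subunit protein joined to a ubiquitin-like one, differed by -0.04 ± 0.05 (limma adjusted p = 0.645). RPL36AL differed by -0.12 ± 0.05 (limma adjusted p = 0.124), with no overlap. Of the mitochondrial ribosome, PTCD3, GADD45GIP1, CHCHD1 and DAP3 differed by -0.19, -0.15, -0.13 and -0.07, none past the threshold (limma adjusted p from 0.134 to 0.355). At an unadjusted limma p under 0.05 there was 1 of the 4, and 1 fell with the trended prior. In all 4 every Dll4-Fc array lay below every untreated array. That held for 23.5% of all genes and 41.1% of genes with a mean log2 signal of 10 or more, as these 4 have. With the mean of its probe sets PTCD3 stood at -0.50 (adjusted p = 0.00119), and without untreated 3 at -0.09. With probe sets averaged GADD45GIP1 stood at -0.09 and DAP3 turned to 0.02 (adjusted p = 0.831).

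Of 17 measured translation and chaperone genes whose messengers also carry TOP tracts, 5 fell and none rose. The share of 29.4% stood against 15% of all genes and 24.5% of genes with a mean of 10 or more that fell. Of the 17, 11 had a mean of 13 or more, and among the 206 genes that bright outside both ribosome sets 21 fell. Of the 17, 13 were lower with no overlap between groups (76.5%), against 23.5% of all genes and 32.5% of the 206. With the trended prior 12 fell and 1 rose, against 18.2% and 13.3% of all genes. In 15 the mean was lower, and the median difference was -0.10. EIF4B, which helps the helicase eIF4A unwind messengers, fell most, from 11.50, 11.46 and 11.43 to 10.93, 10.93 and 10.89, a difference of -0.55 ± 0.05 (limma adjusted p = 0.000237). EIF3F fell by 0.32 ± 0.05 (limma adjusted p = 0.0038), the import receptor IPO5 by 0.32 ± 0.06 (limma adjusted p = 0.00636), and EIF3L and EIF3H by 0.29 and 0.24. EIF4B, EIF3F and IPO5 passed in every alternative fit, with EIF3F at -0.48 when shared probe sets were left out and IPO5 at -0.21 with probe sets averaged.

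Initiation factors outside that list centred slightly above 0. Of 29 measured, 2 rose and 2 fell (13.8%, against 26.6% of all genes), and the median difference was 0.06. EIF2B3, a subunit of the exchange factor for eIF2, rose by 0.26 ± 0.06 (limma adjusted p = 0.0163), EIF1 by 0.19 ± 0.05 (limma adjusted p = 0.0278), and EIF2S3 fell by 0.22 ± 0.06 (limma adjusted p = 0.0278). Each of these 3 lost the call without untreated 2, Dll4-Fc 1 or Dll4-Fc 2 (adjusted p between 0.0558 and 0.104), EIF2S3 also without untreated 3 (0.0538), and EIF1 when any 1 of the 6 arrays was left out and, at 0.04 (adjusted p = 0.833), with shared probe sets left out.

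Genes that make ribosomes passed about as often as all genes (26.6%). Among 15 genes of RNA polymerase I, which transcribes ribosomal RNA, 2 rose and 2 fell (26.7%): the catalytic subunit POLR1A rose by 0.33 ± 0.07 (limma adjusted p = 0.0148, and 0.0627 without Dll4-Fc 1) but stood at 0.04 (adjusted p = 0.727) with the mean of its probe sets, and the terminator TTF1 fell by 0.26 (limma adjusted p = 0.0107). Among 74 nucleolar assembly factors 13 rose and 6 fell (25.7%), with a median of 0.04. Every Dll4-Fc array lay above every untreated array in 37.8% of them and below in 17.6%, against 18.1% and 23.5% of all genes. For genes with a mean of 10 or more, as 35 of the 74 have, the shares were 29.6% and 41.1%. NOP10, of the pseudouridylation complex, rose from 12.89, 12.86 and 12.80 to 13.31, 13.37 and 13.35 (0.49 ± 0.05, limma adjusted p = 0.000529). LAS1L, needed to process a spacer of the large-subunit RNA, fell by 0.50 ± 0.06 (limma adjusted p = 0.000644), but it stood at -0.28 (adjusted p = 0.00798) with probe sets averaged and at -0.06 (adjusted p = 0.631) with shared probe sets left out. EFL1, which releases eIF6 from new large subunits, fell by 0.42 ± 0.06 (limma adjusted p = 0.00196).

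Of 23 measured regulators of cytosolic ribosome synthesis, 2 rose and 5 fell, a share of 30.4% that was near the 26.6% of all genes. MYC, which drives ribosomal protein and RNA polymerase I genes, went from 11.98, 11.92 and 11.88 to 11.40, 11.41 and 11.40, a difference of -0.53 ± 0.05 (limma adjusted p = 0.000317). MXD1, an antagonist of MYC, rose by 0.65 ± 0.10 (limma adjusted p = 0.00274), while the related MXI1 fell by 1.19 ± 0.08 (limma adjusted p = 4.58e-05). DEPTOR, an inhibitor in the mTOR complexes, fell from 8.91, 8.80 and 8.41 to 7.51, 7.52 and 7.88, a difference of -1.07 ± 0.15 (limma adjusted p = 0.00188). In all 4 the groups did not overlap, and all 4 passed in every alternative fit, DEPTOR with a smaller difference of -0.58 when its probe sets were averaged. Their part in the ribosomal protein values was not tested.

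Around the mitochondrial ribosome, 6 of 27 assembly factors fell and 2 rose (29.6%, near the 26.6% of all genes), with a median of -0.12. RBFA, which binds the maturing small subunit, fell from 8.9743, 8.9005 and 9.0026 to 8.5276, 8.5775 and 8.6189 (-0.38 ± 0.06, limma adjusted p = 0.00223), and stood at -0.22 (adjusted p = 0.0213) with its probe sets averaged. METTL15, a methyltransferase of the small ribosomal RNA, fell by 0.37 ± 0.08 (limma adjusted p = 0.0138, and 0.0515 without untreated 2), and stood at -0.15 (adjusted p = 0.128) with the mean of its probe sets. MPV17L2 rose by 0.34 ± 0.08 (limma adjusted p = 0.0199), and its adjusted p was 0.0716, 0.0652 and 0.0642 without untreated 2, Dll4-Fc 2 and Dll4-Fc 3. Of 26 mitochondrial translation factors and tRNA synthetases 1 rose and 3 fell (15.4%), the falls being the synthetase genes PARS2 (-0.33), RARS2 (-0.24) and IARS2 (-0.20). All 3 lost the call without Dll4-Fc 1 (adjusted p = 0.0589, 0.0511 and 0.134), PARS2 and IARS2 without untreated 2 (0.0544 and 0.0938), and IARS2 also without untreated 1, untreated 3 or Dll4-Fc 2 (0.108, 0.053 and 0.125). RARS2 stood at -0.08 (adjusted p = 0.362) with the mean of its probe sets. Of 13 regulators of mitochondrial gene expression 1 passed (7.69%): PPARGC1B, a coactivator of mitochondrial biogenesis, rose from 7.81, 7.90 and 7.67 to 8.39, 8.36 and 8.45, a difference of 0.61 ± 0.07 (limma adjusted p = 0.000753), and stood at 0.33 (adjusted p = 0.0078) with its probe sets averaged.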

How the data were processed

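The deposited values are linear intensities, 1 for each of 54675 probe sets on each array. Per the submitters' processing notes the authors used RMA (version not given in the sources used here). RMA shrinks differences of dim probe sets, and its quantile step hides a change in total RNA. Here the intensities were log2 transformed. Per the platform annotation, 41097 probe sets had 1 symbol, 1801 several and 11777 none listed. Of the members, 44 cytosolic and 46 mitochondrial genes rest on a probe set that can match several transcripts. The test was lmFit and eBayes from limma 3.58.1, run in R 4.3.3 (default prior, 2-sided, 4 residual degrees of freedom, Benjamini-Hochberg over all 19775 genes, or over all probe sets where stated), and the fit was tested on simulated data. The number of arrays limits the precision.

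Members and lists were chosen with earlier results of these data known. Named are up to 8 members with the largest rise and 8 with the largest fall in each ribosome that passed without overlap, members listed by name (disease genes, paralog pairs, MRPL12, MRPS12 and MYC), up to 3 passing genes of each pathway list and the proteins outside the symbol rule. Second probe sets, overlapping genes, EIF3L, EIF3H, MRPS18C, MRPL57 and genes named to spell out a small count were chosen after their values were seen. Promoter sequences came from RefSeq (52 cytosolic and 67 mitochondrial members matched); gene overlap came from a gene table of GRCh38.p14, in which all 135 members matched.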

Additional observations from a re-analysis of the deposited data

How the results depend on the processing

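The limits of these results are 6 arrays, differences near the standard error, and signals at the top of the range. Of 47 named genes past the threshold, 18 kept call and direction in every other fit of the gene-level data that measured them (at most 14), and of 20 others, 10 stayed short of it. Alternatives were the replicate block, the mean of a gene's probe sets, no shared probe sets, no dim genes (below the median probe set signal), cyclic loess, centring, a trended robust prior, array weights and leaving out each array. The cytosolic median stayed below 0 and the mitochondrial above 0 in all of them; causes of the changes below were not tested.

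Cytosolic falls (5) numbered 9 without shared probe sets, 9 with probe sets averaged, 10 without dim genes and with centring, 14 with array weights and 35 with the trended prior. Cytosolic members lower with no overlap (46 of 60) numbered 20 of the 37 measured without shared probe sets, 38 with probe sets averaged and 50 with centring. When 1 array was left out they numbered 46 to 49, a count that cannot drop below 46 because groups that are apart stay apart. For all genes the share lower with no overlap (23.5%) was counted in the default fit alone. The cytosolic median was -0.088 with probe sets averaged, -0.11 without shared probe sets and -0.10 with centring, and the gap between medians -0.15 with cyclic loess. Mitochondrial rises (9) numbered 5 without shared probe sets, and falls (9) 16 with the trended prior and 15 with array weights. Over all genes rises (2298) numbered 1575 without shared probe sets. MRPL4 reversed to -0.058 and MRPL39 to 0.25 without shared probe sets, and MRPL39 to 0.0014 with the mean of probe sets. Of probe sets, cytosolic falls (13) numbered 57 with the trended prior and 26 with array weights, and rises (1) 0 with centring, 2 with the trended prior and 3 with array weights. Mitochondrial probe set falls (11) numbered 23 with the trended prior and 20 with array weights. Their rises (7) numbered 14 with cyclic loess, 3 with centring, 14 with the trended prior and 11 with array weights. Over all probe sets calls were counted in the default fit alone (9.25% lower and 7.21% higher).

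Leaving out 1 array gave 1 to 6 cytosolic falls and 0 to 1 rises, 4 to 9 mitochondrial rises and 4 to 10 falls, 1850 to 3189 falls over all genes (2964 otherwise), 0 to 2 cytosolic probe set rises, 2 to 16 mitochondrial probe set falls and 2 to 4 rises. Replicate numbers are shared between the groups. Same-numbered arrays did not deviate together (correlations of 0.015, -0.21 and -0.15). These deviations come from 3 arrays per group and sum to 0 within each group, so they cannot show whether the numbers pair the samples. With the replicate block the counts were 0 rises and 1 fall among cytosolic genes, 3 and 4 among mitochondrial genes, 0 rises among cytosolic probe sets, 3 rises and 2 falls among mitochondrial probe sets, and 1829 rises and 2061 falls over all genes.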
